A study of Homo sapiens with 18 samples.

Results

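The genes described here were the ATF4 program and the genes of amino acid supply: 39 genes, each found by its symbol among the 44016 genes of the deposited count table. They comprised 6 stress transcription factors, 7 stress effectors and feedback genes, 5 serine and one-carbon enzymes, 7 other amino acid enzymes, 6 amino acid transporters, and 8 genes of tRNA charging and tRNA export. All 39 were among the 22382 genes that passed the low-count filter. The measurement was poly(A) mRNA sequencing of A549, an established human lung adenocarcinoma cell line, in 6 groups of 3 libraries. Untreated wild-type cells (WT) were the first group, and WT given 100 µM H2O2 for 2 h were the second. Cells with a stable knockdown (KD) of S100A16, a small calcium-binding protein, made the third group untreated and the fourth with the same H2O2 exposure. The fifth group had a stable KD of hnRNPM, an RNA-binding protein of splicing, and the last a stable KD of MagoHB, a subunit of the exon junction complex, both untreated. The controls were wild-type cells and not a line carrying an empty vector, so effects of making a stable line cannot be told apart from effects of the KD. The knockdown method and the number of clones per line are not given. The labels call the replicates biological. The p-values rest on the spread between libraries of the same group, which the main test shares per gene over all 6 groups.

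ATF4 is a basic leucine zipper transcription factor whose protein is made mainly when the initiation factor eIF2 is phosphorylated, during amino acid shortage, endoplasmic reticulum stress, haem shortage or viral infection. It then raises genes that take up and synthesise amino acids and charge tRNAs, and it induces DDIT3 (CHOP), TRIB3 and PPP1R15A (GADD34), which carry the response further or switch it off. Because ATF4 is controlled chiefly at translation, the level of its mRNA does not report the amount of its protein. In lung adenocarcinoma cells the serine synthesis branch and the large neutral amino acid transporter SLC7A5 are known for supporting growth.

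ATF4 binds DNA as a dimer with C/EBP proteins at composite elements, of which the asparagine synthetase promoter is a classic case. The core TGATGNAA, searched on both strands in the 250 bases before each RefSeq gene start (GRCh38.p14), occurred in 1104 of 35116 promoters, or 3.14%. Promoters of 33 members were in that set, 52 promoters in all because some genes have several starts, and 6 of the 52 (11.5%) held the core, belonging to 6 of the 33 genes (18.2%). NUPR1, EIF4EBP1, PSPH, SHMT2, PYCR1 and GPT2 were not matched. The 6 stretches are shown because they are the members' matches to the composite element of ATF4. They are written 5′ to 3′ on the gene's own strand with the match in capitals, and their coordinates follow.
CEBPG: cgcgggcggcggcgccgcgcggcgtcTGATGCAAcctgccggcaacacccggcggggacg
CHAC1: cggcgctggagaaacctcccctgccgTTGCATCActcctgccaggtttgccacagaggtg
ASNS: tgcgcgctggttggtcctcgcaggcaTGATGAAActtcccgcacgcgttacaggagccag
SLC1A5: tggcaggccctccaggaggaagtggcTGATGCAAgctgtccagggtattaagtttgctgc
AARS: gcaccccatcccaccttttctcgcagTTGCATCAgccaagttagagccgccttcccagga
GARS: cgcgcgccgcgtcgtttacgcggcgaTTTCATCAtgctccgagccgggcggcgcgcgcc
The CEBPG stretch is chr19:33374045-33374104 (plus strand) with the match 42 bases before a start, and the CHAC1 stretch is chr15:40953236-40953295 (plus strand) with it 209 bases before. The ASNS stretch is chr7:97872443-97872502 (minus strand), with the match 68 bases before a start. SLC1A5 (chr19:46784878-46784937, minus strand), AARS, named AARS1 in RefSeq (chr16:70289660-70289719, minus strand), and GARS, named GARS1 (chr7:30594819-30594877, plus strand) held it 97, 187 and 33 bases before a start. In CHAC1, AARS and GARS the core lies on the opposite strand, so the capitals show its reverse complement. All but the AARS stretch lie inside the span the deposited table gives for the gene, downstream of its outermost start. A match describes the letters in the window and is not evidence of binding.

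The libraries held 36612997 to 51406431 counts. The targeted genes were low where the labels place the KD: S100A16 fell from 118 ± 1.81 CPM (CPM are counts relative to library size, scaled by TMM; mean ± SD, n = 3 here and throughout) in untreated WT to 8.43 ± 0.582 in untreated S100A16 KD, HNRNPM from 1765 ± 30.7 to 367 ± 75.9 in its KD, and MAGOHB from 149.6 ± 5.30 to 52.1 ± 12.6 in its KD. S100A16 was also at 60.6 ± 11.3 CPM in MagoHB KD, and MAGOHB at 66.4 ± 11.2 CPM in hnRNPM KD. In untreated S100A16 KD, HNRNPM was at 1191 ± 31.6 CPM and MAGOHB at 97.2 ± 2.87, both also below untreated WT. In MagoHB KD, HNRNPM was at 1420 ± 239 CPM. Of 6 epithelial markers 5 or 6 averaged at least 1 CPM in every group, their sum lying between 4894 and 9036 CPM per library, KRT8 leading and EPCAM at only 2.82 to 5.96 CPM. The sums of 5 leukocyte markers (0.443 to 1.81 CPM) and of 4 endothelial markers (0.172 to 1.02 CPM) were near 0, and that of 5 fibroblast markers was 16.2 to 52.9 CPM. Library 1 of untreated S100A16 KD, library 3 of hnRNPM KD and library 2 of MagoHB KD (written S100A16 KD 1, hnRNPM KD 3 and MagoHB KD 2) stood apart from their replicates, with a chi-square per degree of freedom of 26.7 to 57.3 against 2.97 to 5.18 for all other replicate pairs. Scaling by total counts in place of TMM raised the log2 fold change of the median gene by 0.24 in untreated S100A16 KD against WT, 0.18 with H2O2, 0.11 in hnRNPM KD and 0.21 in MagoHB KD, so small falls are given with their value under both scalings. In a bulk library fewer expressing cells and less RNA per cell cannot be told apart.

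Corrected for gene length, the 39 genes covered a wide range in untreated WT: 9 were at or above 50 RPKM (CPM per kilobase of exon, here without TMM), 23 at or above 10, and 5 below 1. SLC7A5 was highest at 125 ± 1.47 RPKM, followed by the asparaginyl-tRNA synthetase NARS at 108 ± 3.13 and ATF4 itself at 102 ± 1.17. AARS (82.8 ± 1.86) and SLC3A2 (76.6 ± 1.53) came next. At the other end stood the lipoprotein receptor VLDLR at 0.4997 ± 0.0511 RPKM, the neutral amino acid transporter SLC1A4 at 0.412 ± 0.0673 and CHAC1 at 0.129 ± 0.0429, the last resting on 8 to 16 counts per library. The synthetases NARS, AARS, EPRS (67.5 ± 1.70) and GARS (52.8 ± 3.44) were among the abundant genes and WARS was not (7.74 ± 0.365). Abundant too were the effectors DDIT4 (72.7 ± 3.22), EIF4EBP1 (50.4 ± 2.90) and PPP1R15A (49.3 ± 1.38). Over the 6 groups, the highest group mean in TMM-scaled CPM exceeded the lowest by 1.22-fold for DDIT4 and by up to 3.98-fold for VLDLR. The hnRNPM KD held the lowest group mean for 15 of the 39 genes, the most of any group, and H2O2-treated WT for 0. How often each group was lowest over all genes was not computed, so these counts are not shown to be particular to the members.

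**Figure D1:**
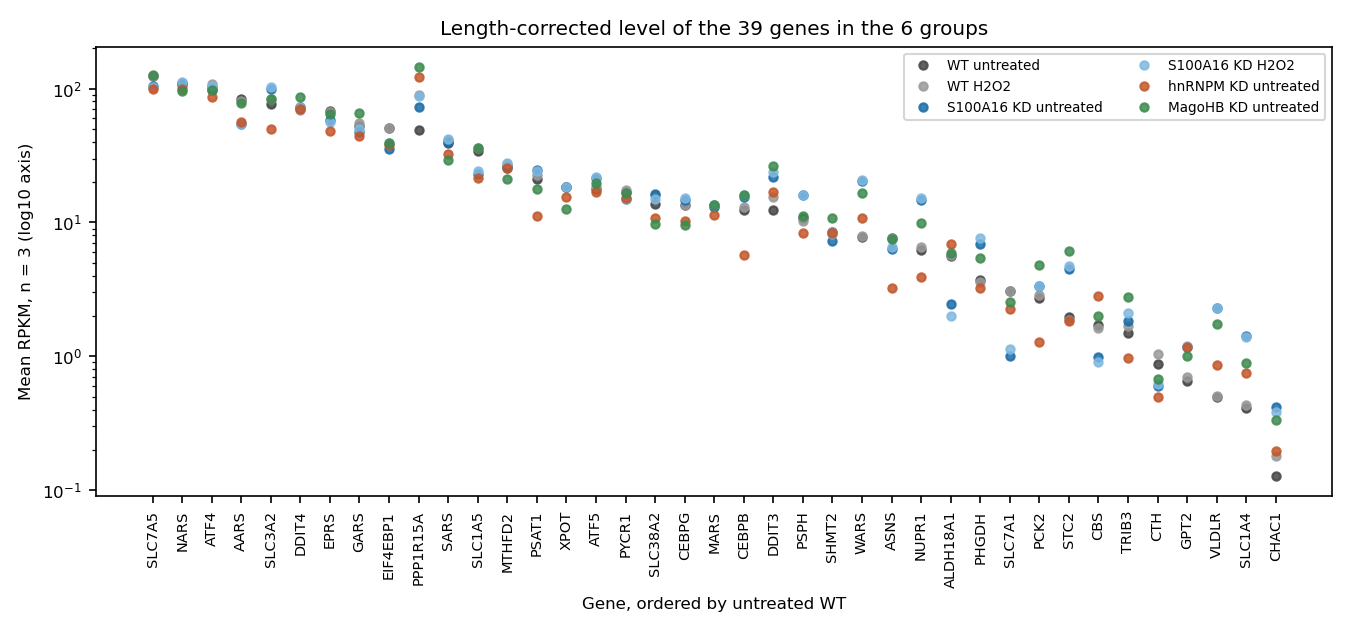
Mean RPKM (log10 axis, n = 3) of each of the 39 genes in the 6 groups, ordered from left to right by untreated WT. The group means of SLC7A5, NARS and ATF4 lie between 86.3 and 127 RPKM, and the groups lie far apart for PPP1R15A and, toward the right, for VLDLR and SLC1A4.

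Each KD line differed from WT in most of these genes, and by TMM scaling the falls outnumbered the rises. In untreated S100A16 KD against WT, edgeR's quasi-likelihood test (Benjamini-Hochberg adjusted p under 0.05 over all genes tested) called 9 members higher and 20 lower, where 27.6% of all tested genes were called higher and 24.8% lower. The members' median log2 fold change was -0.21, against 0.06 over all genes. With H2O2 in both lines, S100A16 KD against WT gave 9 higher and 18 lower (27.9% and 24.7% of all genes). In hnRNPM KD 6 members were higher and 25 lower (25.4% and 23.8% of all genes), with a median of -0.36 against 0.02. In MagoHB KD 9 were higher and 18 lower (23.3% and 22.3% of all genes), with a median of -0.13 against 0.04. The 3 untreated comparisons share the same WT libraries. Whether called falls outnumbered called rises depended on the scaling except in hnRNPM KD: by total counts alone the split was 15 higher and 11 lower in untreated S100A16 KD, 14 and 10 with H2O2, 14 and 8 in MagoHB KD, and 7 and 21 in hnRNPM KD. By that scaling the calls over all genes were 41.1% higher and 14.4% lower, 38.2% and 16.4%, 36.7% and 12.5%, and 31.5% and 18.5%, in the same order. The members' median by total counts was 0.02 against 0.29 over all genes, 0.03 against 0.24, 0.08 against 0.25 and -0.25 against 0.13, again in that order. In each of these comparisons the members' median lay below that of all genes under both scalings. Under both scalings alike, the members called were 9 higher and 11 lower in untreated S100A16 KD, 9 and 10 with H2O2, 6 and 21 in hnRNPM KD, and 9 and 8 in MagoHB KD. The share of all genes called under both scalings was not computed. These last counts therefore have no background and do not show a balance particular to the members.

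**Figure D2:**
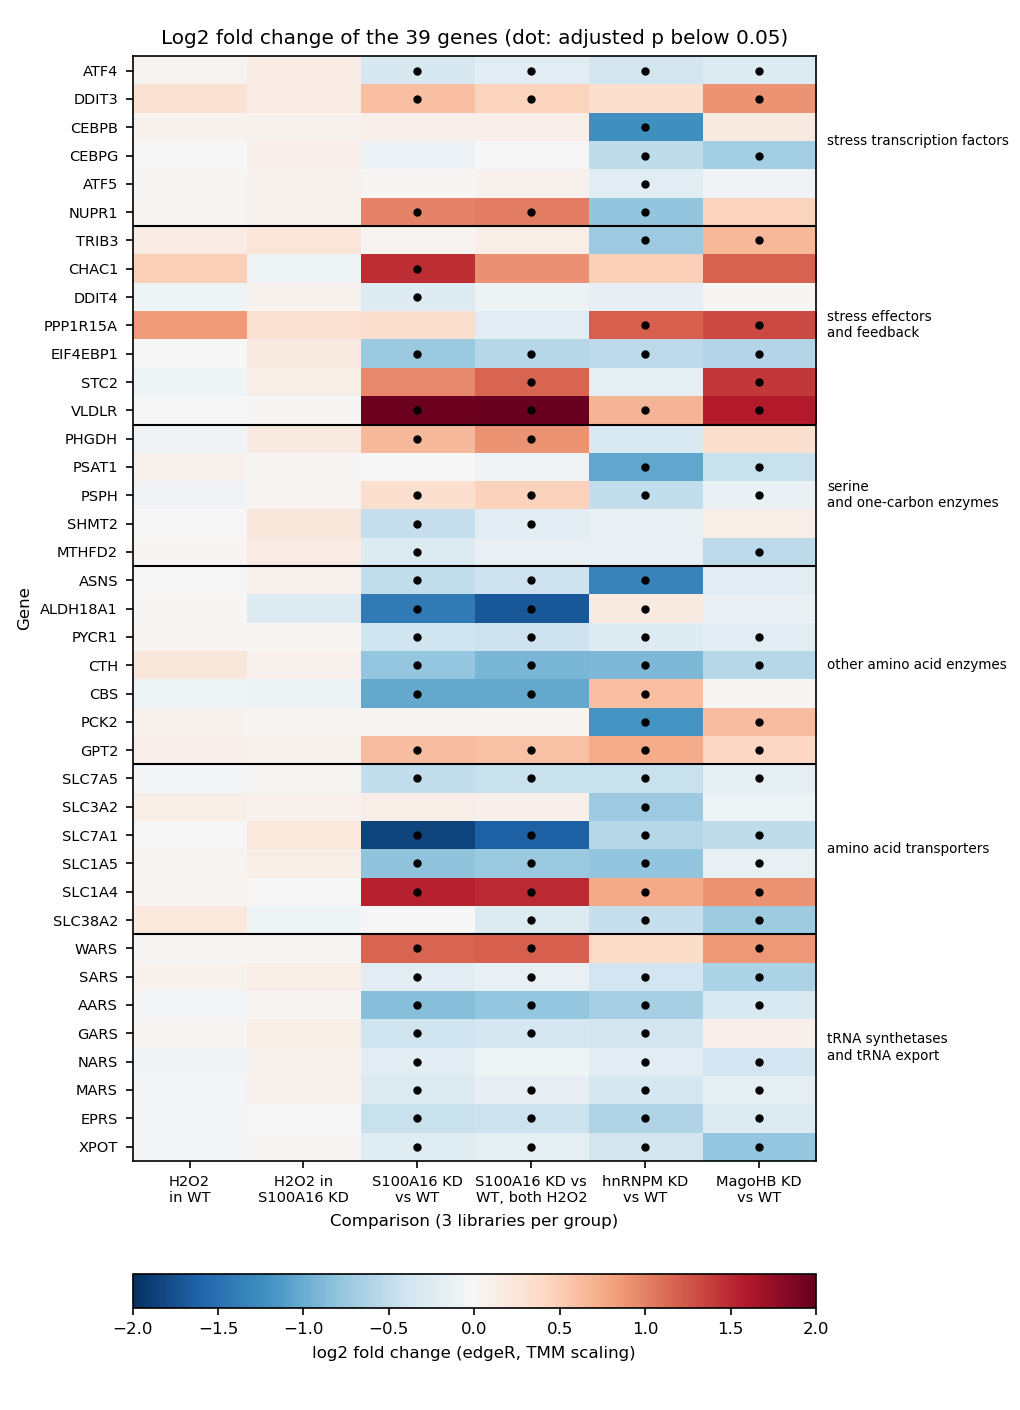
Log2 fold change (edgeR, TMM scaling) of the 39 genes, in rows grouped by role, for 6 comparisons of 3 against 3 libraries in columns; red is higher, blue is lower, and a dot marks an adjusted p below 0.05. The H2O2 columns hold no dot, and the hnRNPM KD column holds 25 dots on lower and 6 on higher values.

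None of the 39 genes passed the threshold after 2 h of H2O2 in the edgeR test over all 18 libraries. In WT 0 members were called (0.147% of all genes were called higher and 0.076% lower) and 2 had an unadjusted p under 0.05. In S100A16 KD 0 members were called (0% of all genes higher and 0.0134% lower) and 7 had an unadjusted p under 0.05. For the difference between the 2 responses 0 were called (0.0179% higher and 0.076% lower over all genes), with 4 at an unadjusted p under 0.05. DESeq2, with 0.29% of all genes called higher and 0.143% lower in WT and 0.179% and 0.0626% in S100A16 KD, called 1 member in WT (PPP1R15A, adjusted p = 0.00344), 1 in S100A16 KD (SHMT2, adjusted p = 0.0381) and 0 for the difference.

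PPP1R15A (chr19:48872392-48876057), the regulatory subunit that directs a phosphatase to eIF2 and so ends the response, had the largest difference after H2O2. PPP1R15A measured 170.2, 171 and 159 CPM in untreated WT, 199, 218 and 214 in S100A16 KD, 318, 380.1 and 443 in hnRNPM KD and 323, 592 and 335 in MagoHB KD. With H2O2, PPP1R15A was at 301, 296 and 307 CPM in WT and 259, 258 and 261 in S100A16 KD. All 3 treated WT libraries lay above all 3 untreated ones with a wide gap, and the same held in S100A16 KD with a narrower one. The log2 difference was 0.85 (SE 0.18, adjusted p = 0.118) in WT and 0.30 (SE 0.18, adjusted p = 0.807) in S100A16 KD in the test over all 18 libraries. That test shares 1 spread per gene over all groups, and for PPP1R15A the SD was 152 CPM in MagoHB KD and 62.7 in hnRNPM KD against 1.77 to 9.58 in the other 4 groups. Fitted on the libraries of the groups compared, where 1.54% of all genes were called higher and 1.27% lower in WT, 2.29% and 1.6% in S100A16 KD, and 0.455% and 0.733% for the difference, 4 members were called in WT, 4 in S100A16 KD and 2 for the difference. In these fits the PPP1R15A log2 fold change was 0.86 in WT (adjusted p = 1.20e-22) and 0.29 in S100A16 KD (adjusted p = 1.02e-05), with a difference of -0.57 between them (adjusted p = 4.88e-11). With the 3 libraries that stood apart left out (0.941% of all genes higher and 0.901% lower in WT, 298 higher and 66 lower of 22638 genes in S100A16 KD, 0.437% and 0.402% for the difference), its adjusted p was 2.47e-20 in WT, 0.00177 in S100A16 KD and 1.64e-08 for the difference.

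The neutral amino acid transporter SLC38A2 was at 99.5 ± 2.94 CPM in untreated WT and 115 ± 0.745 with H2O2, against 100.0 ± 2.22 and 94.6 ± 3.43 in S100A16 KD. On the groups compared alone, the difference between the 2 responses was -0.31 on the log2 scale (adjusted p = 0.000385, and 0.00375 without the 3 libraries apart), while over all 18 libraries its adjusted p was 0.686. DDIT3 was at 17.0 ± 0.698 and 21.1 ± 0.780 CPM in WT without and with H2O2 (adjusted p = 0.00236 on WT alone and 0.776 over all libraries). SLC3A2 passed on WT alone as well (adjusted p = 0.0302), and ATF4, MTHFD2 and SHMT2 passed on S100A16 KD alone, at adjusted p of 0.0348, 0.0150 and 0.0153. For ATF4 the means were 281 ± 1.30 and 292 ± 13.9 CPM in WT and 225 ± 11.8 and 250.5 ± 8.75 in S100A16 KD.

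ATF4 (chr22:39519695-39522685) was somewhat lower in every KD line by TMM scaling. ATF4 measured 280.2, 283 and 281 CPM in untreated WT, 215, 222 and 238 in S100A16 KD, 219, 225 and 213 in hnRNPM KD and 231, 241 and 223 in MagoHB KD. With H2O2, ATF4 was at 297, 277 and 304 CPM in WT and 251, 241 and 259 in S100A16 KD. The WT and KD libraries did not overlap in the untreated state, and the lowest H2O2-treated WT library lay above the highest treated KD library. The log2 fold change against WT was -0.32 (SE 0.06, adjusted p = 4.89e-05) in S100A16 KD, -0.22 (SE 0.06, adjusted p = 0.00191) in S100A16 KD with H2O2, -0.36 (SE 0.06, adjusted p = 1.37e-05) in hnRNPM KD and -0.28 (SE 0.06, adjusted p = 0.000301) in MagoHB KD. By total counts alone these values were -0.08, -0.04, -0.25 and -0.07, and by that scaling the fall was called in hnRNPM KD alone.

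Among the other stress transcription factors, the 3 KD lines differed in which genes moved. CEBPB (chr20:50190734-50192689), a C/EBP protein that pairs with ATF4 and also serves inflammatory responses, was low in hnRNPM KD. CEBPB measured 25.7, 26.6 and 26.6 CPM in untreated WT, 27.7, 27.4 and 29.4 in S100A16 KD, 9.44, 9.71 and 14.6 in hnRNPM KD and 25.8, 35.1 and 28.1 in MagoHB KD. With H2O2, CEBPB was at 27.6, 26.4 and 29.3 CPM in WT and 27.9, 29.5 and 31.6 in S100A16 KD. The 3 hnRNPM KD libraries lay below all others, although hnRNPM KD 3 was higher than its replicates, and the log2 fold change against WT was -1.22 (SE 0.13, adjusted p = 4.38e-07). In the S100A16 and MagoHB lines it was 0.10 (SE 0.13, adjusted p = 0.540) and 0.18 (SE 0.13, adjusted p = 0.276). By total counts CEBPB was called higher in MagoHB KD (0.39, adjusted p = 0.0367).

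NUPR1 (chr16:28532708-28539174), a small nuclear protein induced by many stresses, went in opposite directions. NUPR1 measured 41.0, 40.2 and 35.4 CPM in untreated WT, 76.2, 75.3 and 80.8 in S100A16 KD, 21.0, 22.2 and 24.2 in hnRNPM KD and 32.0, 87.7 and 38.4 in MagoHB KD. With H2O2, NUPR1 was at 37.2, 39.1 and 43.7 CPM in WT and 81.1, 81.2 and 82.6 in S100A16 KD. Every S100A16 KD library exceeded every WT library, and every hnRNPM KD library lay below. MagoHB KD 2 was far above its replicates, of which library 3 lay within the untreated WT range and library 1 below it. Against WT, the log2 fold change was 0.99 (SE 0.27, adjusted p = 0.00778) in untreated S100A16 KD, 1.03 (SE 0.27, adjusted p = 0.00642) with H2O2, and -0.79 (SE 0.28, adjusted p = 0.0322) in hnRNPM KD, the last not called by total counts (-0.67, adjusted p = 0.0782) nor without hnRNPM KD 1, 2 or 3 or WT 1 or 2 (adjusted p from 0.0605 to 0.0853). In MagoHB KD it was 0.44 (SE 0.27, adjusted p = 0.208).

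DDIT3, the proapoptotic factor CHOP, was higher in S100A16 KD at 25.9 ± 0.589 CPM (log2 fold change 0.60, SE 0.15, adjusted p = 0.00290) and in MagoHB KD at 31.6 ± 9.37 (log2 fold change 0.89, SE 0.15, adjusted p = 0.000133). In hnRNPM KD it was at 21.5 ± 2.05 CPM (adjusted p = 0.0744, and 0.0379 by total counts). Between the H2O2-treated lines its log2 fold change was 0.44 (adjusted p = 0.0212), a call lost without S100A16 KD H2O2 3 or WT H2O2 1, 2 or 3 (adjusted p from 0.0504 to 0.104). The annotation places 355 exon bases of DDIT3, 28.0% of its exons, opposite MARS, and the counting strand is not given, so reads of the pair may be mixed. CEBPG, the dimer partner of ATF4, fell in hnRNPM KD (-0.51) and MagoHB KD (-0.70) by both scalings. ATF5, a relative of ATF4 under similar translational control, was called lower in hnRNPM KD alone (-0.20, adjusted p = 0.0193), which was lost by total counts (-0.09) and without hnRNPM KD 1 or WT 2 (adjusted p from 0.0782 to 0.119), and 21.2% of its exon bases lie opposite NUP62. By total counts ATF5 was called higher in S100A16 KD, untreated (0.26, adjusted p = 0.00615) and with H2O2 (0.26, adjusted p = 0.00644). CEBPG was also called higher by total counts in S100A16 KD with H2O2 (0.17, adjusted p = 0.0270).

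Among the stress effectors was the largest rise of the 39 genes. VLDLR (chr9:2621834-2660053), a lipoprotein receptor raised by ATF4 under stress, was highest in S100A16 KD. VLDLR measured 4.76, 4.91 and 5.62 CPM in untreated WT, 19.3, 20.3 and 20.2 in S100A16 KD, 6.45, 7.602 and 10.4 in hnRNPM KD and 12.2, 20.5 and 12.9 in MagoHB KD. With H2O2, VLDLR was at 4.95, 4.91 and 5.57 CPM in WT and 19.6, 18.8 and 22.4 in S100A16 KD. S100A16 KD and MagoHB KD did not overlap WT, with or without H2O2, and hnRNPM KD lay between. VLDLR was 3.91-fold higher than WT in untreated S100A16 KD (log2 fold change 1.97, SE 0.18, adjusted p = 1.21e-07) and 3.95-fold higher with H2O2 (1.98, SE 0.19, adjusted p = 1.27e-07). The fold was 2.99 in MagoHB KD (1.58, SE 0.18, adjusted p = 2.48e-06) and 1.60 in hnRNPM KD (0.68, SE 0.19, adjusted p = 0.00640), the last not called without hnRNPM KD 3 (adjusted p = 0.0519).

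PPP1R15A, whose library values stand with the H2O2 results, was above WT in hnRNPM KD by 2.28-fold (log2 fold change 1.19, SE 0.18, adjusted p = 9.21e-05) and in MagoHB KD by 2.50-fold (1.323, SE 0.18, adjusted p = 4.63e-05). Without hnRNPM KD 3 and MagoHB KD 2, in turn, both calls stood, the MagoHB KD value being 0.98. No hnRNPM KD or MagoHB KD library overlapped the untreated WT libraries. In untreated S100A16 KD the log2 fold change was 0.34 (SE 0.18, adjusted p = 0.138), with 0.57 (adjusted p = 0.0286) by total counts and 0.35 (adjusted p = 1.38e-08) without the 3 libraries apart.

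STC2 (chr5:173314713-173329503), a secreted glycoprotein that moderates calcium entry under stress, varied widely between replicates. STC2 measured 11.7, 12.99 and 14.7 CPM in untreated WT, 24.3, 28.9 and 23.4 in S100A16 KD, 6.97, 8.39 and 18.8 in hnRNPM KD and 19.5, 63.5 and 21.6 in MagoHB KD. With H2O2, STC2 was at 13.04, 12.2 and 11.8 CPM in WT and 28.9, 25.8 and 28.1 in S100A16 KD. All S100A16 KD libraries exceeded all WT libraries, and MagoHB KD 2 and hnRNPM KD 3 stood high above their replicates. Against WT the values on the log2 scale were 1.16 (SE 0.43, adjusted p = 0.0384) in H2O2-treated S100A16 KD, 0.96 (SE 0.43, adjusted p = 0.0785) in untreated S100A16 KD, 1.41 (SE 0.43, adjusted p = 0.0162) in MagoHB KD and -0.20 (SE 0.44, adjusted p = 0.739) in hnRNPM KD. The H2O2 call was lost without S100A16 KD H2O2 1, 2 or 3 or WT H2O2 1, 2 or 3 (adjusted p from 0.0632 to 0.0966) and the MagoHB KD call without MagoHB KD 2 or WT 1 (adjusted p from 0.0583 to 0.119), where it was 0.65 without MagoHB KD 2. In hnRNPM KD the value was -0.78 without hnRNPM KD 3 (adjusted p = 0.185), and without the 3 libraries apart it was -0.79 and called lower (adjusted p = 2.00e-08). In untreated S100A16 KD STC2 was called higher by total counts (1.19, adjusted p = 0.0383) and without the 3 libraries apart (0.97, adjusted p = 8.24e-13).

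TRIB3 (chr20:362835-397559), a pseudokinase that restrains ATF4 and CHOP, was called lower in hnRNPM KD and higher in MagoHB KD, both calls depending on single libraries. TRIB3 measured 5.45, 6.40 and 5.07 CPM in untreated WT, 5.44, 6.10 and 5.96 in S100A16 KD, 3.27, 2.59 and 4.26 in hnRNPM KD and 5.74, 13.4 and 7.51 in MagoHB KD. With H2O2, TRIB3 was at 6.05, 6.87 and 5.89 CPM in WT and 6.64, 6.44 and 7.58 in S100A16 KD. The hnRNPM KD libraries were the lowest, and MagoHB KD 1 overlapped WT while MagoHB KD 2 was far above. TRIB3 had a log2 fold change of -0.73 (SE 0.25, adjusted p = 0.0213) in hnRNPM KD, a call lost by total counts (-0.61, adjusted p = 0.0703) and without hnRNPM KD 1 or 2 or WT 2 (adjusted p from 0.0635 to 0.0859). In MagoHB KD it was 0.66 (SE 0.23, adjusted p = 0.0271), a call lost without MagoHB KD 2 or WT 1 or 3 (adjusted p from 0.0820 to 0.238), with a value of 0.23 without MagoHB KD 2. In S100A16 KD it was 0.05 (SE 0.24, adjusted p = 0.880).

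EIF4EBP1, a repressor of cap-dependent translation, fell in every line and under both scalings, with log2 fold changes of -0.75 in untreated S100A16 KD, -0.57 with H2O2, -0.52 in hnRNPM KD and -0.58 in MagoHB KD. CHAC1, which degrades glutathione, was at 0.289 ± 0.0958 CPM in untreated WT and 0.805 ± 0.102 in untreated S100A16 KD (log2 fold change 1.47, SE 0.54, adjusted p = 0.0274), a call lost without S100A16 KD 2 or 3 or WT 2 or 3 (adjusted p from 0.0608 to 0.111). In MagoHB KD CHAC1 was at 0.638 ± 0.644 CPM, its SD as large as its mean, and was called there by total counts alone, at 1.41 (adjusted p = 0.0446) against 1.18 (SE 0.54, adjusted p = 0.0851) by TMM, with -0.12 without MagoHB KD 2. Between the H2O2-treated lines it was 0.91 (SE 0.53, adjusted p = 0.157), and called on those groups alone (adjusted p = 0.025) and without the 3 libraries apart (adjusted p = 0.0338). DDIT4, an inhibitor of mTORC1 also known as REDD1, changed little: it was called lower in untreated S100A16 KD (-0.26, adjusted p = 0.0262), where it was -0.02 by total counts and not called, nor without S100A16 KD 1 or 3 or WT 3 (adjusted p from 0.0523 to 0.0864). An antisense transcript lies opposite 41.2% of its exon bases.

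**Figure D3:**
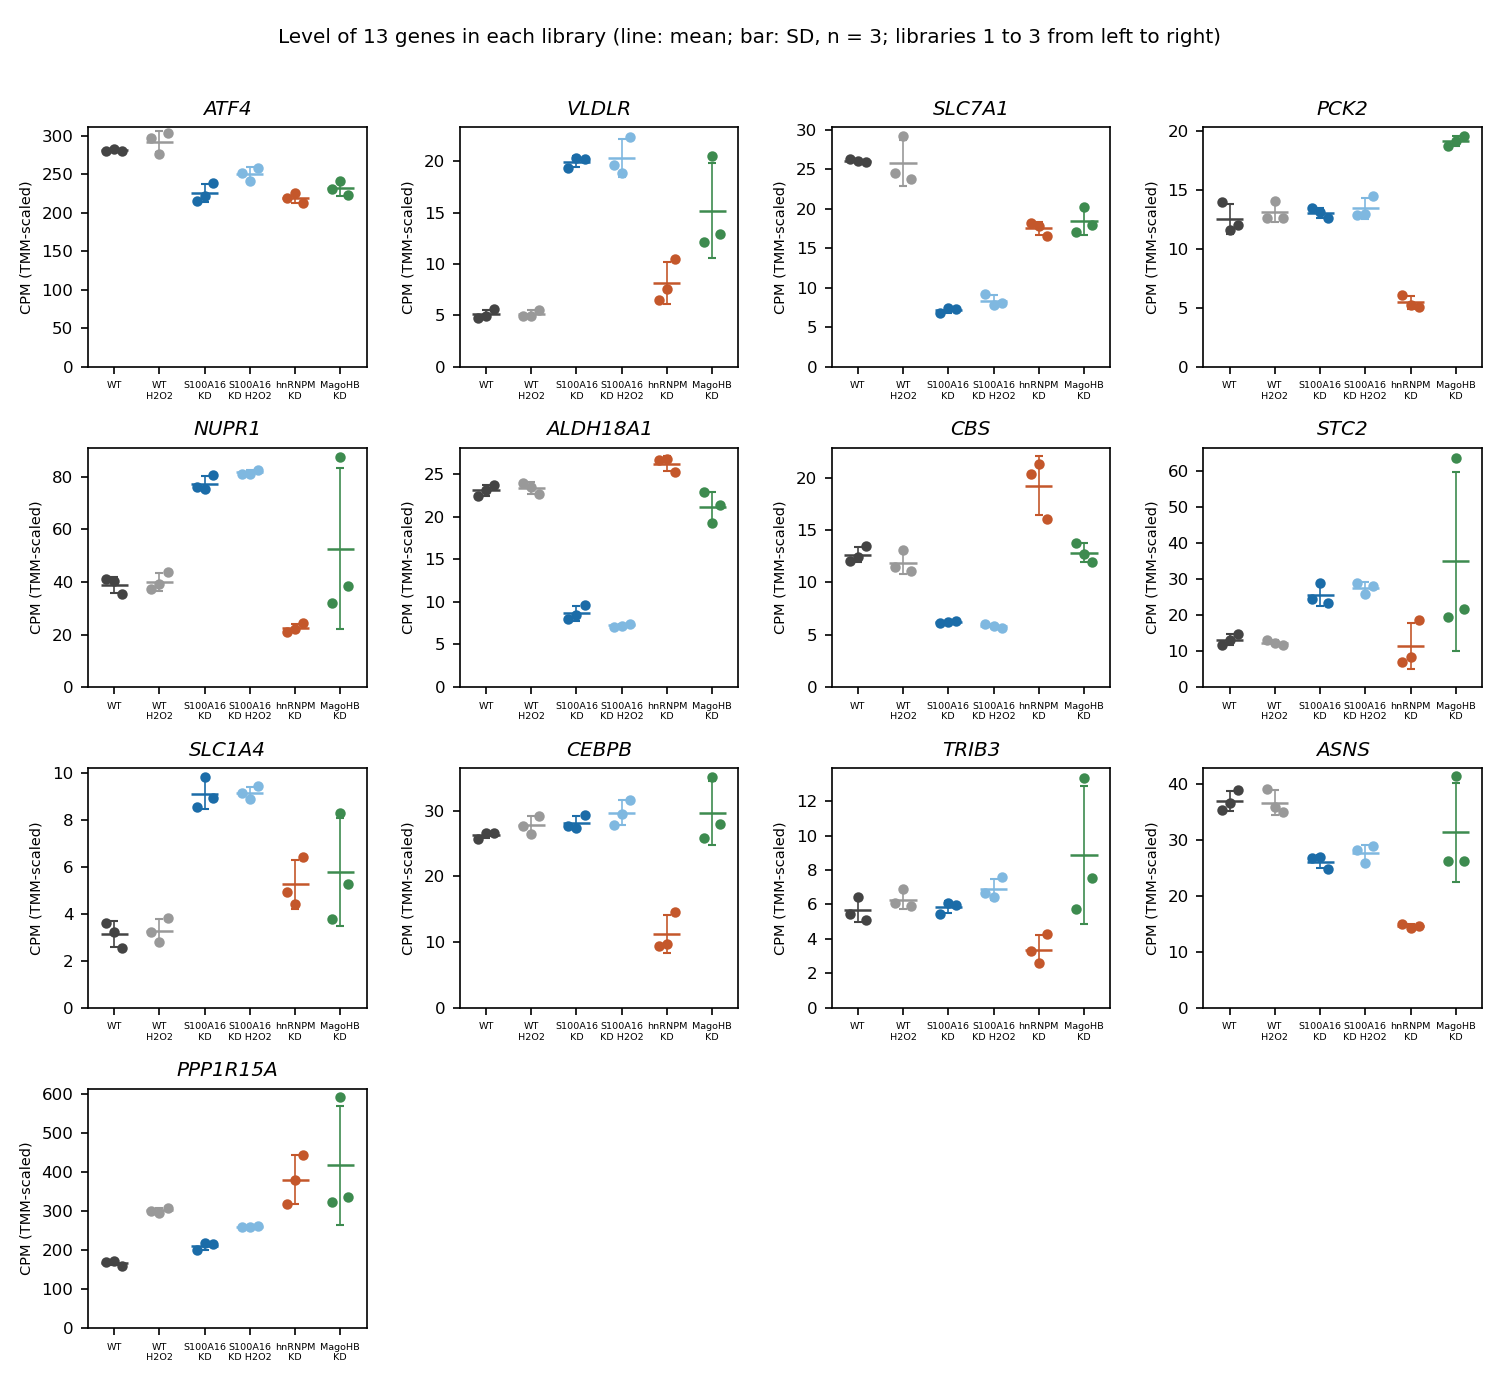
TMM-scaled CPM of ATF4 and the 12 members with the largest differences, 1 panel per gene with its own axis from 0; points are libraries 1 to 3 from left to right in each group, lines are means and bars are SD (n = 3). VLDLR and SLC1A4 are high and SLC7A1, ALDH18A1 and CBS low in S100A16 KD, while PCK2, ASNS and CEBPB are low in hnRNPM KD, and the second MagoHB KD library lies above its replicates for STC2, NUPR1, TRIB3 and PPP1R15A.

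Of the 3 enzymes of serine synthesis, 2 were higher in S100A16 KD and 2 lower in hnRNPM KD, and PSPH was among both. Over all genes, 27.6% were called higher in untreated S100A16 KD and 23.8% lower in hnRNPM KD. PHGDH, PSAT1 and PSPH catalyse the successive steps from a glycolytic intermediate to serine. In S100A16 KD the first and last steps rose: PHGDH was at 36.2 ± 1.49 CPM against 23.0 ± 1.03 in untreated WT (log2 fold change 0.65, SE 0.14, adjusted p = 0.000611, and 0.91 with H2O2) and PSPH at 40.9 ± 1.33 against 32.3 ± 0.731 (0.34, SE 0.05, adjusted p = 1.78e-05, and 0.46 with H2O2). PSAT1, the middle step, was at 50.1 ± 1.58 against 50.5 ± 1.58 CPM, a log2 fold change of -0.01 (SE 0.10, adjusted p = 0.939). In hnRNPM KD the middle and last steps fell, with PSAT1 at 24.7 ± 1.46 CPM (-1.03, SE 0.11, adjusted p = 1.65e-07) and PSPH at 23.1 ± 0.316 (-0.49, SE 0.06, adjusted p = 1.85e-07), and PHGDH had a log2 fold change of -0.31 (adjusted p = 0.0739). In MagoHB KD PHGDH was at 0.31 (SE 0.14, adjusted p = 0.0709), called higher by total counts (0.53, adjusted p = 0.00579) and at 0.14 without MagoHB KD 2. In the same line PSAT1 (-0.45) and PSPH (-0.14) were called lower by TMM scaling, but by total counts the values were -0.24 (adjusted p = 0.120) and 0.07 (adjusted p = 0.343). The PSPH call there was also lost without MagoHB KD 1 or WT 2 or 3 (adjusted p from 0.0778 to 0.142).

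SHMT2 and MTHFD2, mitochondrial enzymes that pass the carbon of serine to folate, fell in untreated S100A16 KD by 0.46 and 0.28 on the log2 scale, and by total counts SHMT2 remained called (-0.23) but MTHFD2 did not (-0.04). With H2O2 SHMT2 was lower by TMM scaling alone (-0.23, and -0.05 by total counts). MTHFD2 fell in MagoHB KD by both scalings (-0.53, SE 0.08, adjusted p = 1.18e-05), and 27.2% of its exon bases lie opposite SLC4A5. In hnRNPM KD neither was called, SHMT2 at -0.14 and MTHFD2 at -0.15. SHMT2 was 0.14 (adjusted p = 0.0633) in MagoHB KD and was called higher there by total counts (0.34, adjusted p = 9.33e-05).

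ASNS (chr7:97852118-97872542), which makes asparagine and whose promoter holds the match printed with the sequences, was the enzyme with the largest fall in hnRNPM KD. ASNS measured 35.4, 36.6 and 38.97 CPM in untreated WT, 26.8, 26.9 and 24.8 in S100A16 KD, 14.9, 14.3 and 14.7 in hnRNPM KD and 26.3, 41.5 and 26.4 in MagoHB KD. With H2O2, ASNS was at 39.2, 36.0 and 35.0 CPM in WT and 28.2, 25.9 and 28.9 in S100A16 KD. All hnRNPM KD libraries lay below all others, and the ratio to WT was 39.6%, a log2 fold change of -1.34 (SE 0.13, adjusted p = 1.02e-07). In S100A16 KD the libraries also lay below all WT libraries, at -0.50 (SE 0.12, adjusted p = 0.00245) untreated and -0.41 (SE 0.12, adjusted p = 0.0100) with H2O2, but by total counts these were -0.26 (adjusted p = 0.127) and -0.23 (adjusted p = 0.192). MagoHB KD 1 and 3 lay below WT and MagoHB KD 2 above: over the 3 libraries the log2 fold change was -0.23 (SE 0.12, adjusted p = 0.134), and -0.49 (adjusted p = 1.69e-06) without MagoHB KD 2.

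PCK2 (chr14:24094053-24110598), the mitochondrial enzyme that turns oxaloacetate into phosphoenolpyruvate, separated hnRNPM KD from MagoHB KD. PCK2 measured 13.9, 11.6 and 12.0 CPM in untreated WT, 13.4, 13.1 and 12.6 in S100A16 KD, 6.06, 5.26 and 5.02 in hnRNPM KD and 18.7, 19.1 and 19.5 in MagoHB KD. With H2O2, PCK2 was at 12.6, 14.0 and 12.6 CPM in WT and 12.9, 12.97 and 14.5 in S100A16 KD. The hnRNPM KD libraries were the lowest of the 18 and the MagoHB KD libraries the highest, with tight replicates in both, and S100A16 KD overlapped WT. PCK2 had log2 fold changes of -1.20 (SE 0.09, adjusted p = 6.68e-10) in hnRNPM KD and 0.61 (SE 0.09, adjusted p = 6.55e-06) in MagoHB KD, both also called by total counts (-1.08 and 0.82). In S100A16 KD it was 0.06 (SE 0.09, adjusted p = 0.606), and 0.30 (adjusted p = 0.00855) by total counts. With H2O2 these values were 0.035 (adjusted p = 0.763) and 0.22 (adjusted p = 0.0463).

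ALDH18A1 (chr10:95605929-95656706), which commits glutamate to proline, fell in S100A16 KD. ALDH18A1 measured 22.4, 23.1 and 23.7 CPM in untreated WT, 7.94, 8.43 and 9.58 in S100A16 KD, 26.7, 26.7 and 25.2 in hnRNPM KD and 22.8, 19.3 and 21.3 in MagoHB KD. With H2O2, ALDH18A1 was at 23.9, 23.5 and 22.6 CPM in WT and 7.07, 7.19 and 7.43 in S100A16 KD. All 6 S100A16 KD libraries lay far below the other 12. The ratio to WT was 37.5% untreated (log2 fold change -1.41, SE 0.08, adjusted p = 3.42e-12) and 31.0% with H2O2 (-1.69, SE 0.08, adjusted p = 2.88e-13). In hnRNPM KD it was 0.18 (SE 0.08, adjusted p = 0.0474), a call lost without hnRNPM KD 1 or 2 or WT 1, 2 or 3 (adjusted p from 0.0756 to 0.156), and in MagoHB KD -0.13 (SE 0.08, adjusted p = 0.183). PYCR1, the last step of proline synthesis, was lower in every line by TMM scaling, at -0.40 in untreated S100A16 KD, -0.42 with H2O2, -0.25 in hnRNPM KD and -0.23 in MagoHB KD. By total counts it was -0.16 and -0.23 in S100A16 KD, still called, and -0.14 and -0.02 in the other lines, not called. Those calls were lost too without hnRNPM KD 3 (adjusted p = 0.0687) and without MagoHB KD 2 (adjusted p = 0.129).

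CBS (chr21:43053191-43076943), which joins homocysteine to serine in the route to cysteine, fell in S100A16 KD and rose in hnRNPM KD. CBS measured 12.1, 12.4 and 13.5 CPM in untreated WT, 6.16, 6.22 and 6.34 in S100A16 KD, 20.3, 21.3 and 16.1 in hnRNPM KD and 13.8, 12.7 and 12.0 in MagoHB KD. With H2O2, CBS was at 11.5, 13.1 and 11.1 CPM in WT and 5.98, 5.87 and 5.65 in S100A16 KD. S100A16 KD libraries were the lowest, all hnRNPM KD libraries exceeded WT, and MagoHB KD overlapped WT. The log2 fold change was -1.02 (SE 0.10, adjusted p = 3.09e-08) in untreated S100A16 KD, -1.03 (SE 0.10, adjusted p = 3.24e-08) with H2O2, 0.61 (SE 0.10, adjusted p = 2.11e-05) in hnRNPM KD and 0.02 (SE 0.10, adjusted p = 0.886) in MagoHB KD. The gene has a near-identical copy, CBSL, and how reads of the copies were assigned is not given, so these counts are uncertain. CTH, the next enzyme of that route, fell in each line by TMM scaling: -0.77 in untreated S100A16 KD, -0.92 with H2O2, -0.90 in hnRNPM KD and -0.57 in MagoHB KD, the last lost by total counts (-0.36) and without MagoHB KD 2 or WT 1 or 3 (adjusted p from 0.0589 to 0.191). GPT2, the mitochondrial alanine aminotransferase, was higher in each line under both scalings, at 0.62, 0.59, 0.74 and 0.42 in the same order, the last lost without MagoHB KD 2 or WT 2 or 3 (adjusted p from 0.0829 to 0.265).

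Among the transporters, SLC7A1 (chr13:29509410-29595688), which imports arginine and lysine, had the largest fall of the 39 genes. SLC7A1 measured 26.3, 26.03 and 25.8 CPM in untreated WT, 6.77, 7.49 and 7.36 in S100A16 KD, 18.1, 17.8 and 16.6 in hnRNPM KD and 17.0, 20.2 and 17.9 in MagoHB KD. With H2O2, SLC7A1 was at 24.6, 29.2 and 23.7 CPM in WT and 9.199, 7.78 and 8.05 in S100A16 KD. No KD library overlapped any WT library of the same treatment, and S100A16 KD was the lowest line. The ratio to WT was 27.7% in untreated S100A16 KD (log2 fold change -1.85, SE 0.09, adjusted p = 5.42e-13), 32.3% with H2O2 (-1.63, SE 0.09, adjusted p = 4.05e-12), 67.2% in hnRNPM KD (-0.57, SE 0.09, adjusted p = 1.11e-05) and 70.7% in MagoHB KD (-0.50, SE 0.09, adjusted p = 6.72e-05), all also called by total counts.

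SLC1A4 (chr2:64988477-65023865), an exchanger of serine, alanine and cysteine, went the other way. SLC1A4 measured 3.62, 3.23 and 2.55 CPM in untreated WT, 8.56, 9.84 and 8.94 in S100A16 KD, 4.92, 4.42 and 6.41 in hnRNPM KD and 3.77, 8.31 and 5.29 in MagoHB KD. With H2O2, SLC1A4 was at 3.21, 2.80 and 3.82 CPM in WT and 9.13, 8.91 and 9.43 in S100A16 KD. Every KD library lay above every WT library of the same treatment, and S100A16 KD libraries were the highest. The gene was 2.91-fold higher than WT in untreated S100A16 KD (1.54, SE 0.22, adjusted p = 1.09e-05), 2.81-fold with H2O2 (1.49, SE 0.22, adjusted p = 1.77e-05), 1.68-fold in hnRNPM KD (0.75, SE 0.22, adjusted p = 0.00943) and 1.86-fold in MagoHB KD (0.90, SE 0.22, adjusted p = 0.00280). The hnRNPM KD call was lost without hnRNPM KD 3 or WT 3 (adjusted p from 0.0530 to 0.0630). MagoHB KD 2 was the highest of its group, and without it the MagoHB KD value was 0.54 (adjusted p = 0.0119).

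SLC1A5, the glutamine carrier related to SLC1A4, fell in S100A16 KD and hnRNPM KD: it was at 125 ± 2.43 CPM in untreated WT, 71.4 ± 4.73 in S100A16 KD (-0.81, SE 0.06, adjusted p = 8.54e-11), 72.8 ± 3.15 in hnRNPM KD (-0.78, SE 0.06, adjusted p = 1.38e-10) and 113 ± 3.24 in MagoHB KD (-0.15, SE 0.05, adjusted p = 0.0286). The MagoHB KD call was lost by total counts (0.06) and without MagoHB KD 3 or WT 1 (adjusted p from 0.0743 to 0.100), and 23.4% of the exon bases of SLC1A5 lie opposite another transcript. SLC7A5 and SLC3A2 encode the light and heavy chains of one exchanger of large neutral amino acids. SLC7A5 fell in S100A16 KD (-0.50, and -0.45 with H2O2) and hnRNPM KD (-0.44) by both scalings, and in MagoHB KD by TMM scaling alone (-0.18, and 0.02 by total counts), a call lost without MagoHB KD 2 or WT 1, 2 or 3 (adjusted p from 0.0509 to 0.0992). SLC3A2 fell in hnRNPM KD (-0.73, SE 0.06, adjusted p = 3.61e-09), and in untreated S100A16 KD it was 0.14 (SE 0.06, adjusted p = 0.0739) by TMM scaling and 0.37 (adjusted p = 0.000151) by total counts. With H2O2 SLC3A2 in S100A16 KD was 0.10 (adjusted p = 0.207) by TMM scaling and 0.28 (adjusted p = 0.00228) by total counts. SLC38A2 fell in hnRNPM KD (-0.46) and MagoHB KD (-0.70) by both scalings and was 0.01 in untreated S100A16 KD, where it was called higher by total counts (0.25, adjusted p = 0.00819). With H2O2 its log2 fold change in S100A16 KD against WT was -0.28, and -0.09 (adjusted p = 0.298) by total counts.

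Of the 8 genes of tRNA charging and export, 7 fell and 0 rose in hnRNPM KD under both scalings, and the sizes were small. Over all genes by TMM scaling, 23.8% were called lower in hnRNPM KD, 24.8% in untreated S100A16 KD, 24.7% with H2O2 and 22.3% in MagoHB KD. By total counts these shares were 18.5%, 14.4%, 16.4% and 12.5%. The share of all genes called under both scalings was not computed. The aminoacyl-tRNA synthetases attach amino acids to their tRNAs, each named by the letter of its amino acid, and XPOT carries tRNAs out of the nucleus. In hnRNPM KD the log2 fold changes of the 7 lay between -0.66 for AARS and -0.22 for NARS, with SARS at -0.39, GARS at -0.36, MARS at -0.35, EPRS at -0.61 and XPOT at -0.37. In untreated S100A16 KD 7 fell by TMM scaling, of which AARS (-0.84) and EPRS (-0.45) remained called by total counts (-0.61 and -0.21), and SARS, GARS, NARS, MARS and XPOT did not. With H2O2 6 fell by TMM scaling, and AARS (-0.77) and EPRS (-0.43) again were the ones called lower under both. NARS with H2O2 was -0.08 by TMM scaling and was called higher by total counts (0.10, adjusted p = 0.0395). The SARS and MARS calls with H2O2 were also lost without S100A16 KD H2O2 1, 2 or 3 or WT H2O2 2 or 3 (adjusted p from 0.0506 to 0.0845) for SARS and without S100A16 KD H2O2 1 or 2 or WT H2O2 1 or 3 (adjusted p from 0.0667 to 0.136) for MARS. In MagoHB KD 6 fell by TMM scaling, and SARS (-0.64), NARS (-0.39) and XPOT (-0.77) were lower under both scalings. GARS was at 0.10 in MagoHB KD and was called higher there by total counts (0.32, adjusted p = 0.00429). AARS (-0.30), EPRS (-0.28) and MARS (-0.20) were not called by total counts, and MARS was not called without MagoHB KD 1 (adjusted p = 0.0703).

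WARS, the tryptophanyl-tRNA synthetase and also an interferon-induced gene, rose in S100A16 KD and MagoHB KD. It was at 53.8 ± 2.95 CPM in untreated WT, 121 ± 10.1 in S100A16 KD (log2 fold change 1.17, SE 0.22, adjusted p = 0.000461), 69.2 ± 14.4 in hnRNPM KD (0.36, SE 0.21, adjusted p = 0.183) and 98.3 ± 39.9 in MagoHB KD (0.87, SE 0.21, adjusted p = 0.00470). With H2O2 in both lines it was at 54.7 ± 0.760 CPM in WT and 126 ± 7.89 in S100A16 KD (1.203, SE 0.22, adjusted p = 0.000375). These rises stood under both scalings and, for MagoHB KD, without MagoHB KD 2 (0.49, adjusted p = 0.00568).

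Many of the 39 genes were highest in 1 MagoHB KD library. MagoHB KD 2 was the highest of its 3 libraries for 26 of the 39 genes (66.7%), where it was the highest for 42.6% of all 22382 genes, and its median log2 distance from the mean of the other MagoHB KD libraries was 0.21 over the members against 0.01 over all genes. CHAC1 was 5.18 times the mean of the other MagoHB KD libraries, STC2 3.08 times, NUPR1 2.49 times, TRIB3 2.02 times, WARS 1.91 times, SLC1A4 1.83 times and PPP1R15A 1.80 times. ASNS was 1.58 times and PSAT1 1.46 times. The transcription factors were divided. Besides NUPR1, DDIT3 was 1.59 times and CEBPB 1.30 times, while CEBPG (1.13 times), ATF5 (1.08 times) and ATF4 (1.06 times) were closer to their replicates. PCK2 (1.00 times) and AARS (0.999 times) were close as well, EIF4EBP1 was 0.901 times, and CTH was the lowest at 0.614 times. In hnRNPM KD 3 the ratios were 2.44 for STC2, 1.90 for CHAC1 and 1.53 for CEBPB, and 15 of the 39 genes were highest there (38.5%, against 39.3% of all genes). S100A16 KD 1 was the highest of its group for 4 of the 39 genes (10.3%, against 31.9% of all genes). Without MagoHB KD 2, 6 members were called higher and 17 lower in MagoHB KD against WT (18.9% and 20.2% of all genes in that fit). TRIB3, STC2, PYCR1, CTH, GPT2 and SLC7A5 lost their calls, and ASNS and SLC3A2 (-0.17, adjusted p = 0.0141) became called lower. The part of library quality or culture state in this pattern was not tested.

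**Figure D4:**
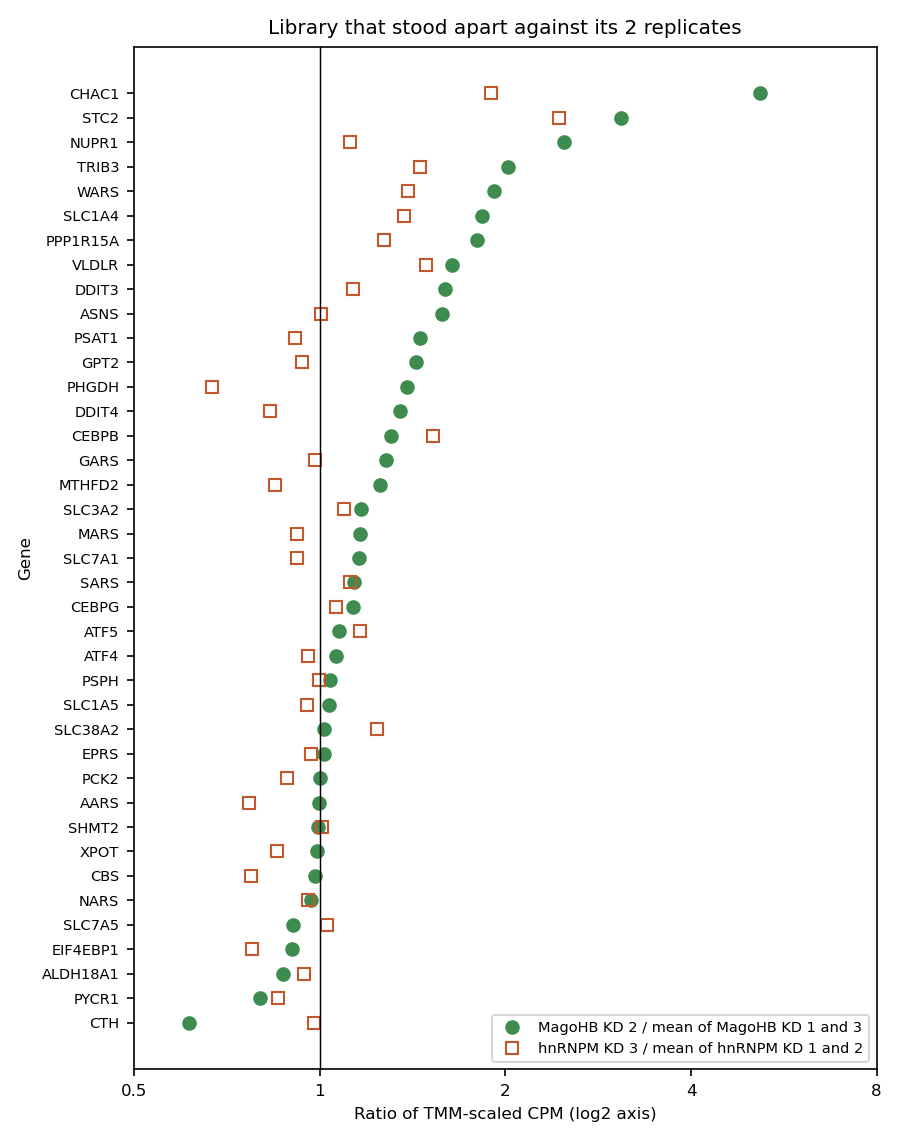
For each of the 39 genes, the TMM-scaled CPM of MagoHB KD 2 over the mean of MagoHB KD 1 and 3 (filled circles) and of hnRNPM KD 3 over the mean of hnRNPM KD 1 and 2 (open squares), on a log2 axis. CHAC1, STC2, NUPR1 and TRIB3 lie above 2 in MagoHB KD 2, and ATF4 lies near 1.

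Compared with each other, the KD lines differed in 24 to 27 of the 39 genes, and more members were lower than higher in hnRNPM KD. S100A16 KD against hnRNPM KD gave 18 members higher and 7 lower (24.6% and 24.2% of all genes), led by NUPR1 (1.78, SE 0.28, adjusted p = 0.000139) on the higher side and CBS (-1.62, SE 0.10, adjusted p = 1.05e-11) on the lower. CEBPB (1.319), PCK2 (1.26) and PSAT1 (1.02) were also higher in S100A16 KD, and ALDH18A1 (-1.60) and SLC7A1 (-1.28) lower. S100A16 KD against MagoHB KD gave 11 higher and 13 lower (23.2% and 21.7% of all genes), with SLC38A2 at 0.71 (SE 0.07, adjusted p = 9.67e-09) and SLC7A1 at -1.35 (SE 0.09, adjusted p = 4.88e-11) as the largest called values in each direction. Without MagoHB KD 2 the count was 16 and 13 (24.4% and 22% of all genes in that fit), and CHAC1 (1.59), NUPR1 (1.13, adjusted p = 9.80e-13) and SLC1A4 (1.003) were called above SLC38A2 (0.72). The comparison of hnRNPM KD with MagoHB KD gave 8 higher and 19 lower (22.3% and 22.2% of all genes), and 4 and 23 by total counts (17.8% and 27.7% of all genes by that scaling). PCK2 (-1.81, SE 0.09, adjusted p = 5.86e-13), CEBPB (-1.40) and ASNS (-1.10) were lower in hnRNPM KD, and CBS (0.59) and MTHFD2 (0.37) higher.

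Other genes around the pathway were read from 6 lists, beside the shares of all genes called, which were 27.6% higher and 24.8% lower in untreated S100A16 KD, 27.9% and 24.7% with H2O2, 25.4% and 23.8% in hnRNPM KD, and 23.3% and 22.3% in MagoHB KD. By total counts these shares were 41.1% and 14.4%, 38.2% and 16.4%, 31.5% and 18.5%, and 36.7% and 12.5%, in the same order. Where the total-count split of a list is given, it is to be read beside these. The genes named from the lists remained called in the stated direction by total counts and without the 3 libraries apart. Values marked TMM are given by that scaling only. Of 14 tested further targets of ATF4 or CHOP, 10 were higher (71.4%) and 1 lower (7.14%) in untreated S100A16 KD, 8 and 2 with H2O2 (10 and 0 by total counts), 9 and 2 in hnRNPM KD, and 9 and 3 in MagoHB KD. The autophagy-related KLHL24 was at 3.43 ± 0.425 CPM in untreated WT and 8.53 ± 0.378 in untreated S100A16 KD (log2 fold change 1.31), and 1.04 and -0.51 in MagoHB KD and hnRNPM KD. SLC7A11, the cystine importer whose heavy chain is SLC3A2, was at 282 ± 7.42 CPM in untreated WT, 63.5 ± 16.2 in hnRNPM KD (-2.15) and 153 ± 18.7 in MagoHB KD (-0.88). KLHL24 and SLC7A11 were the 2 targets called lower in hnRNPM KD. Among the 9 called higher there, ERO1A (0.92, TMM) and GADD45A (1.18, TMM) had the smallest adjusted p.

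The kinases and regulators of eIF2 split by line: of 16 genes 5 were higher (31.2%) and 10 lower (62.5%) in untreated S100A16 KD, 6 and 3 in hnRNPM KD, and 1 and 12 in MagoHB KD, while by total counts the splits were 5 and 3, 8 and 2, and 3 and 5. IMPACT, an inhibitor of the kinase GCN2, rose in S100A16 KD (0.69) and MagoHB KD (0.54). EIF2AK2, the kinase PKR, fell in hnRNPM KD (-0.77), where PPP1R15B, the constitutive partner of the eIF2 phosphatase, rose (0.78).

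Of 13 other cytosolic synthetases, 0 were higher and 11 lower (84.6%) in untreated S100A16 KD, led by YARS (-0.72) and LARS (-0.88), 3 and 6 in hnRNPM KD, and 2 and 8 in MagoHB KD. By total counts these were 1 and 8, 5 and 6, and 3 and 5. Of 17 mitochondrial synthetases, 0 were higher and 13 lower (76.5%) in untreated S100A16 KD (2 and 7 by total counts), with FARS2 (-1.55) and IARS2 (-1.004) having the smallest p. In hnRNPM KD 2 were higher and 8 lower, and in MagoHB KD 6 and 4, or 8 and 2 by total counts.

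Of 12 other amino acid transporters, 6 were higher (50%) and 3 lower (25%) in untreated S100A16 KD, 3 and 6 in hnRNPM KD and 5 and 2 in MagoHB KD. These counts are by TMM scaling, and the split of this list by total counts is not given. SLC38A1, a glutamine carrier, was at 81.0 ± 4.61 CPM in untreated WT and 58.9 ± 1.36, 25.3 ± 2.86 and 22.2 ± 1.25 in untreated S100A16, hnRNPM and MagoHB KD. Its log2 fold changes were -0.46, -1.68 and -1.87. Of 25 further enzymes of serine, one-carbon, proline and amino acid metabolism, 7 were higher (28%) and 6 lower (24%) in untreated S100A16 KD, shares near those of all genes, 7 and 8 in hnRNPM KD, and 11 and 6 in MagoHB KD. By total counts these were 12 and 2, 10 and 5, and 14 and 1. The shares of all genes by that scaling were 41.1% and 14.4%, 31.5% and 18.5%, and 36.7% and 12.5%. PRODH, which degrades the proline that ALDH18A1 and PYCR1 make, was at 0.418 ± 0.0847 CPM in untreated WT and 3.31 ± 0.310 in untreated S100A16 KD (2.98). PRODH was also called higher in MagoHB KD (1.65, TMM), where ALDH18A1 was not called. ASS1, the arginine synthesis enzyme, fell in hnRNPM KD (-1.06). H2O2 called 0 genes in any of the 6 lists, in WT or in S100A16 KD. Over all genes it called 0.147% higher and 0.076% lower in WT, and 0% and 0.0134% in S100A16 KD. The 0 is near these shares and is not particular to the lists.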

How the data were processed

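The deposited table holds raw read counts per gene for 18 libraries, with RPKM beside them that the authors computed from these counts (100% of the RPKM values above 0 equal the counts scaled to exon length and to the library's total within a relative tolerance of 0.001). The submitters' processing notes list HISAT2 2.2.1 and StringTie 2.1.4, then DESeq2 1.32.0, with SAMtools 1.15.1, FastQC 0.11.9 and build GRCh38, on which the table's gene coordinates are printed. Which program counted the reads, on what annotation and with what strand setting, is not given. Odd values made up 18.6% to 22% of the counts from 1 to 19 in each library, so mates may have been counted singly. Totals were 36612997 to 51406431 counts.

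Tests used edgeR 4.0.16 under R 4.3.3: TMM scaling, filterByExpr over the 6 groups, robust quasi-likelihood F test, 1 mean per group over all 18 libraries, Benjamini-Hochberg adjustment over 22382 genes, called under 0.05, in 10 comparisons. CPM values are TMM-scaled. The test was tried on simulated data for untreated S100A16 KD against WT (20861 genes): it recovered 86.6% of 67 genes changed 1.5-fold, 98.5% of 67 changed 2-fold and 100% of 66 changed 4-fold, with 7 false among 197 calls. Few genes were changed there, whereas the real comparison called 27.6% of genes higher and 24.8% lower. The trial therefore cannot show how many calls come from the choice of scaling.

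The members and lists were chosen with earlier results of these data known. ATF4 and the 12 other members with the largest called absolute log2 fold change, at a mean of at least 1 CPM, are given with every library. From each further list up to 2 genes per direction with the smallest p were named. Alternatives were DESeq2 1.42.0, total-count scaling, no filter, the compared groups alone, halved counts, a replicate block, each library left out, and, added after the data were seen, the 3 libraries apart left out.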

Additional observations from a re-analysis of the deposited data

How the results depend on the processing

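Of the 190 member calls over the comparisons of lines, DESeq2 lost 2, no filter 14, fits on the compared groups alone 26, halved counts 0, the replicate block 3, and leaving out the 3 libraries apart 7, none reversed. Total counts lost 38, 8 of them with the opposite sign. For H2O2 in WT, where 0 members were called, DESeq2 called 1, the compared groups alone 4 and the fit without the 3 libraries apart 3. For H2O2 in S100A16 KD these were 1, 4 and 3, also against 0. For the difference between the 2 responses the compared groups alone gave 2 and the fit without the 3 libraries 2, against 0. The shares of all genes called rose in these fits too, in WT from 0.147% higher and 0.076% lower to 1.54% and 1.27% on the groups alone and 0.941% and 0.901% without the 3 libraries. STC2 was not called without the filter in S100A16 KD against WT with H2O2 (adjusted p = 0.0777) or against hnRNPM KD (0.0826). With the replicate number as a replicate block, hnRNPM KD against WT gave 5 members higher and 26 lower (24.9% and 23.6% of all genes in that fit). MagoHB KD gave 10 and 18 (22.6% and 22% of all genes). Same-numbered libraries did not deviate together (r from -0.325 to 0.402 over 45 pairs, against -0.458 to 0.53 over 90 pairs of other numbers), so the numbers were not taken to pair samples. CHAC1, with 8 to 78 counts per library, is the member whose depth limits it most.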
